A study of Mus musculus with 5 samples.

Results

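The genes described here are 10 genes that mark microglia gathered around amyloid plaques: Cst7, Itgax, Axl, Spp1, Csf1, Cd68, Lgals3, Gpnmb, Ccl6 and Igf1. They were chosen by symbol, and all 10 were found among the 32285 gene features counted in each of 5 libraries of single nuclei from mouse hippocampus. Each library gave nuclear RNA and, from the same nuclei, open chromatin, with 1 library per group. The groups were wild-type mice, 5xFAD mice, and 3 further groups labelled 5xFAD with a knockout of MAGL (monoacylglycerol lipase, the Mgll gene product, which breaks down an endocannabinoid) in astrocytes, in neurons or globally. 5xFAD mice carry human transgenes of familial Alzheimer's disease under the neuronal Thy1 promoter and form amyloid plaques. All 4 groups other than wild type carry the 5xFAD transgenes by their labels, and none of the 3 knockouts was present on a wild-type background. Age, sex, the number of animals pooled and the driver of each knockout are not given in the sources used here. The question the groups pose for these genes is how their microglial level differs with the 5xFAD transgenes and, within 5xFAD, with the labelled loss of MAGL.

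Microglia that contact plaques leave their resting state, take up lipid and debris, enlarge their lysosomes and change the proteins they display and secrete. TREM2, a lipid-sensing receptor that signals through TYROBP, is needed for the full change, in which genes of the resting state such as P2ry12 and Cx3cr1 decline. The genes described here cover the main roles of that state: a brake on lysosomal proteases (Cst7) and proteins of the lysosome and its membrane (Cd68, Gpnmb), receptors of the cell surface (Itgax, Axl), and secreted proteins (Spp1, Csf1, Igf1, Ccl6, Lgals3).

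After filters on genes per nucleus, mitochondrial UMIs and doublets, 3917 to 7031 nuclei per library were used, with median depths over all barcodes of 14069 to 17354 UMIs (unique molecular identifiers, each counting 1 captured RNA). Clustering left out the 10 genes and the plaque-response, homeostatic and partner gene lists described below, but not the border macrophage and other immune lists. It placed 403 nuclei in 1 cluster whose leading genes included Ctss, C1qa, Inpp5d and C1qc. These nuclei are microglia-like by the markers used and are called microglial nuclei here. They numbered 43 in wild type, 86 in 5xFAD, and 123, 54 and 97 in those labelled as astrocyte, neuron and global MAGL-KO, or 0.858% to 2.10% of the nuclei used. Their median depth was 2039 to 2849 UMIs, so that 1 library gave 95166 to 258036 microglial UMIs in all. Pairs of libraries shared 29 to 63 barcodes, none of them microglial in both. Mgll UMIs were not lost in the knockout libraries. Astrocytes held 492 CPM (UMIs of the gene per 1000000 UMIs of the class in that library) in wild type and 348 in 5xFAD. They held 483, 401 and 413 in the libraries labelled as astrocyte, neuron and global MAGL-KO. Excitatory neurons held 71.8, 76.9, 94.2, 96.1 and 84.0 in the same order. The labels of those 3 libraries are therefore used as names only. Microglial nuclei with UMIs of Y-linked genes numbered 14 in wild type, 32 in 5xFAD and 31, 6 and 20 in the other 3 libraries, and those with Xist UMIs 21, 44, 76, 44 and 60 in that order, so that every library held nuclei of both kinds in unequal proportion.

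Because the members share a cell state, the sequence just upstream of their starts is shown for 5 of them, picked after their values were seen: Cd68, Csf1 and Axl, whose listed peaks at the start held microglial cut sites in every library, and Itgax and Igf1, which with Cd68 carry the AP-1 motif. The sequences are the 250 bases before the RefSeq start (GRCm38.p6), read 5′ to 3′ on the gene's strand, at chr11:69666171-69666420, minus strand for Cd68, chr3:107760470-107760719, minus strand for Csf1, chr7:25788734-25788983, minus strand for Axl, chr7:128129300-128129549, plus strand for Itgax and chr10:87860861-87861110, plus strand for Igf1. Capitals mark matches on either strand to GAGGAA, a core of the binding sequence of PU.1 (the main myeloid transcription factor), or to TGANTCA, the binding sequence of AP-1.
Cd68: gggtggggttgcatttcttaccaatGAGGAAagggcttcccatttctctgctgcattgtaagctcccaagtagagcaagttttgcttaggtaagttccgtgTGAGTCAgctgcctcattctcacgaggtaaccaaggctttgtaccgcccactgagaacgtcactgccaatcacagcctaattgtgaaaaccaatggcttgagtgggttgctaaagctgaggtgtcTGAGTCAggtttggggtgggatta
Csf1: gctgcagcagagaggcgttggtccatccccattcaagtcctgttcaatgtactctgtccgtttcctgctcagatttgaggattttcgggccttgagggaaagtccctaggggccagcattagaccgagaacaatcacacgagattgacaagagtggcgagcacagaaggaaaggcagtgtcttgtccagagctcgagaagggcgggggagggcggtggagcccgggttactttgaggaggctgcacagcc
Axl: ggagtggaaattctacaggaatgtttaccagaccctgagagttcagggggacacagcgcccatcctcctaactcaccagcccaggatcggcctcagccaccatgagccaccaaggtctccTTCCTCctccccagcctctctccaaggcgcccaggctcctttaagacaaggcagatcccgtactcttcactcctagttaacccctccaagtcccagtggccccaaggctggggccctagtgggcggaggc
Itgax: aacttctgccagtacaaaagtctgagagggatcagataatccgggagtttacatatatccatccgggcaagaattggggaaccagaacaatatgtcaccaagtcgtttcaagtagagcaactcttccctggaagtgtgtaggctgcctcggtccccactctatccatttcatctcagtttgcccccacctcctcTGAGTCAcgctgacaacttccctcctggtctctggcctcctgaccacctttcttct
Igf1: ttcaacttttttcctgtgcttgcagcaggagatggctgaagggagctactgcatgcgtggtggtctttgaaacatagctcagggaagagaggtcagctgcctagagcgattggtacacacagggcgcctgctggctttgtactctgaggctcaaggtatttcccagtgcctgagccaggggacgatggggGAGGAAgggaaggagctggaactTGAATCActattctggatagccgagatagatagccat
RefSeq held 11 promoter sequences for the 10 genes, with 2 for Spp1. GAGGAA was present in 4 of the 11, those of Axl, Cd68, Igf1 and 1 of Spp1, against 23.3% of 32851 mouse promoters of the same length. TGANTCA was present in 3 of the 11, those of Cd68 (at 2 places), Igf1 and Itgax, against 6.75% of all promoters. CACGTG, the E-box read by lysosomal regulators such as TFEB, was present in 0 of the 11 and in 6.02% of all promoters. None of these motifs overlapped another in the sequences shown, and a match describes letters only.

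In microglia, 9 of the 10 genes had a higher level in 5xFAD than in wild type, and 5 of them (Itgax, Axl, Csf1, Gpnmb and Igf1) had no UMI in the 43 wild-type nuclei. For Ccl6 and Spp1, each with 1 wild-type UMI, the direction turned in smaller sets of nuclei. Without nuclei holding any border macrophage or other immune UMI, which leaves 15 wild-type and 18 5xFAD nuclei, the log2 ratio of Ccl6 was -2.86, and 7 of the 10 genes were then at least 2-fold higher and 1 at least 2-fold lower. In nuclei with Y-linked UMIs it was -0.19 for Ccl6 and -0.98 for Spp1. The summed level of the 10 genes was 221 CPM in wild type and 1193 in 5xFAD, a log2 ratio of 2.43 with a 95% interval of 1.79 to 3.15 from counting error alone. In nuclei with Xist UMIs alone the log2 ratio was 2.96 (1.94 to 4.20), and in those with Y-linked UMIs 1.62 (0.66 to 2.74). The same sum was 1151, 1296 and 886 CPM in the libraries labelled as astrocyte, neuron and global MAGL-KO. With 1 library per group there is no replicate error and no test between groups, and every interval given here covers counting error only. Intervals of UMI levels and ratios also treat the UMIs of 1 nucleus as independent, so they are too narrow where several UMIs came from 1 nucleus. Without Cd68, the member with the most UMIs, the sums were 31.5 in wild type, 832 in 5xFAD, 744, 926 and 605. The microglial level of each gene in each library is plotted on its own scale.

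**Figure D1:**
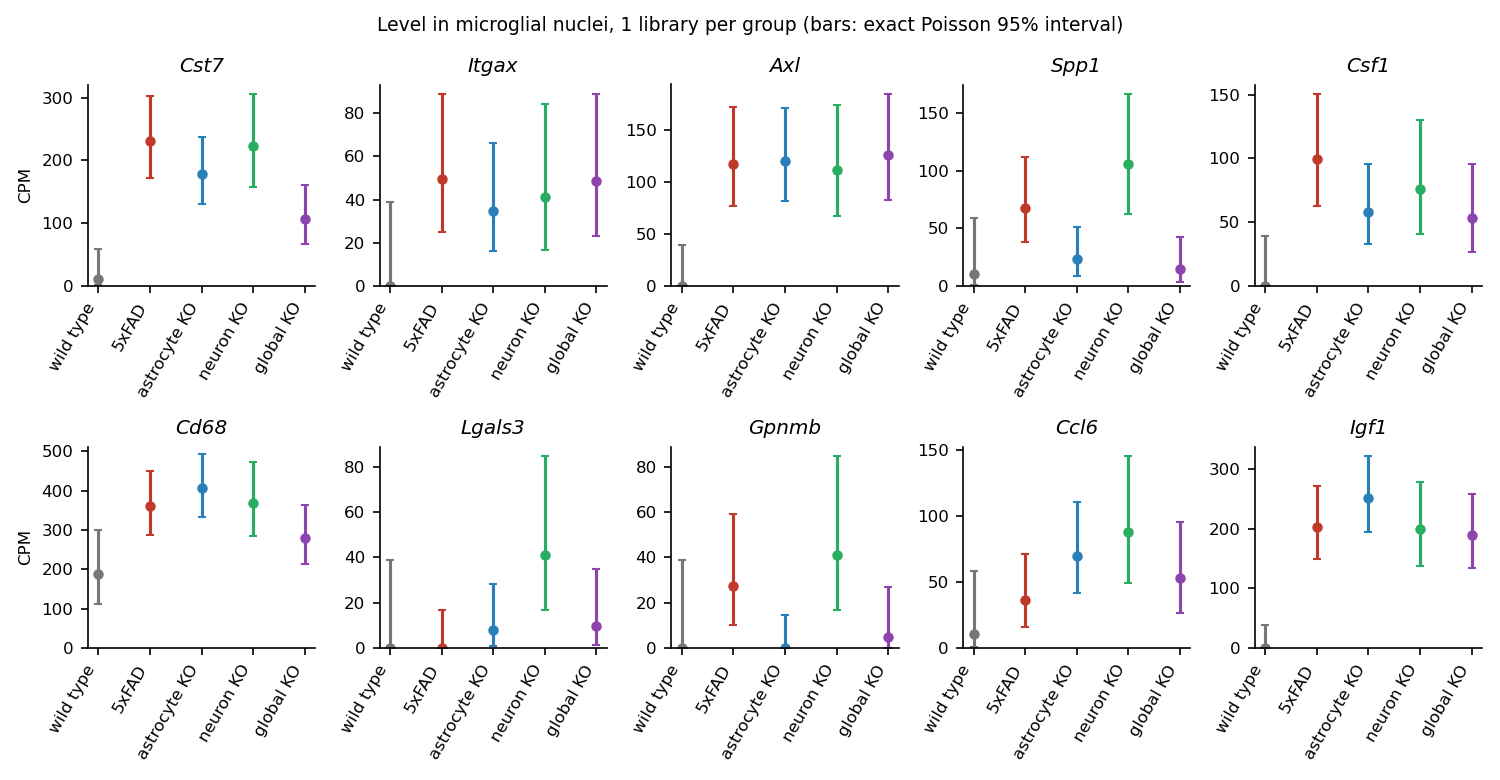
CPM in microglia (vertical axes) of each of the 10 genes in the 5 libraries (horizontal axes; KO stands for the MAGL-KO label), 1 library per group, with exact Poisson 95% intervals as bars. Wild type is lowest or level with the lowest in every panel, and Cst7 is at 230.5 in 5xFAD and 106 in the library labelled as global MAGL-KO.

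Cst7, which encodes cystatin F, an inhibitor of lysosomal cysteine proteases, lies on chromosome 2 (150570415 to 150578944, GRCm38, plus strand). It had 1 UMI in wild-type microglia and 51, 46, 38 and 22 in 5xFAD and the libraries labelled as astrocyte, neuron and global MAGL-KO, or 10.5, 230.5, 178, 223 and 106 CPM. Wild type was lowest, and the interval of the library labelled as global MAGL-KO (66.7 to 161) lies below that of 5xFAD (172 to 303) but overlaps those of the other 2 knockout libraries (131 to 238 and 158 to 306). The Cst7 UMIs came from 16 of 97 nuclei in the library labelled as global MAGL-KO and 28 of 86 in 5xFAD. Against wild type the 5xFAD level was 21.9-fold higher (3.76 to 883, resting on 1 wild-type UMI), and the library labelled as global MAGL-KO stood at 0.462 of 5xFAD (0.267 to 0.776). The libraries labelled as astrocyte and neuron MAGL-KO stood at 0.773 (0.508 to 1.18) and 0.967 (0.618 to 1.5003) of 5xFAD, intervals that span equality. Cst7 was lower in the library labelled as global MAGL-KO than in 5xFAD under each of the 13 alternative settings, by log2 ratios of -2.83 to -0.36.

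Cd68 encodes a glycoprotein of the lysosomal membrane that is present in resting microglia too, and lies on chromosome 11 (69664213 to 69666153, minus strand). It had 18, 80, 105, 63 and 58 microglial UMIs in wild type, 5xFAD and then the libraries labelled as astrocyte, neuron and global MAGL-KO, or 189, 362, 407, 369 and 281 CPM. It was the one gene of the 10 with a clear wild-type level, and all 4 transgenic libraries were above it. The 5xFAD level was 1.91-fold that of wild type (1.14 to 3.39), which is below 2-fold. The 3 knockout libraries stood at 1.13 (0.833 to 1.52), 1.02 (0.722 to 1.44) and 0.776 (0.544 to 1.10) of 5xFAD.

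Gpnmb, a glycoprotein that travels to lysosomes and is a target of MITF-family factors, lies on chromosome 6 (49036546 to 49070929, plus strand) and was rare in microglia, with 0, 6, 0, 7 and 1 UMIs in the same order. The 5xFAD count is too low to set a bound against the 0 of wild type. The library labelled as astrocyte MAGL-KO, with 0 UMIs in 123 nuclei, was at least 2.33-fold lower than 5xFAD when 0 is replaced by the limit of 3 counts per library. This rests on 6 UMIs, the interval of the ratio reaches 0.728, and the direction turned, to a log2 ratio of 0.43, when microglia were taken by highest marker score. That rule took 258 nuclei with 2155015 UMIs in the library labelled as astrocyte MAGL-KO, against 258036 UMIs in the 123 nuclei. The library labelled as global MAGL-KO stood at 0.179 of 5xFAD (0.0039 to 1.47) on 1 UMI.

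Itgax encodes CD11c, the alpha chain of an integrin, and lies on chromosome 7 (128129547 to 128150657, plus strand). It had 0, 11, 9, 7 and 10 UMIs, or 0, 49.7, 34.9, 41.0 and 48.4 CPM, so that the 4 transgenic libraries had overlapping intervals and wild type had none. With 0 replaced by 3 counts, 5xFAD was at least 1.58-fold higher than wild type. This bound leaves out the counting error of 5xFAD, and the exact interval of the ratio starts at 1.08. Axl, a receptor tyrosine kinase that binds GAS6 and mediates uptake of dying cells, lies on the minus strand of the same chromosome (25757273 to 25788705). It had 0, 26, 31, 19 and 26 UMIs, or 0, 118, 120.1, 111 and 126 CPM. By the same bound 5xFAD was at least 3.73-fold higher than wild type, with an exact interval that starts at 2.82. Axl had the most even levels over the 4 transgenic libraries, with ratios to 5xFAD of 1.02, 0.948 and 1.07 in the libraries labelled as astrocyte, neuron and global MAGL-KO.

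Spp1 encodes osteopontin, a secreted ligand of integrins and CD44, and lies on chromosome 5 (104435118 to 104441050, plus strand). It had 1, 15, 6, 18 and 3 UMIs, or 10.5, 67.8, 23.3, 106 and 14.5 CPM. These UMIs came from few nuclei, 1, 3, 4, 4 and 2 in the 5 libraries, so that single nuclei set the level of this gene. The ratio of 5xFAD to wild type was 6.45 (0.993 to 272). The libraries labelled as astrocyte and global MAGL-KO stood at 0.343 (0.109 to 0.936) and 0.214 (0.0397 to 0.757) of 5xFAD, and the library labelled as neuron MAGL-KO at 1.56 (0.741 to 3.32), but the counting intervals treat UMIs of 1 nucleus as independent and are too narrow for this gene.

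Csf1, the ligand of the receptor CSF1R on which microglia depend for survival, lies on chromosome 3 (107741048 to 107760469, minus strand). It had 0, 22, 15, 13 and 11 microglial UMIs, or 0, 99.4, 58.1, 76.2 and 53.2 CPM. With 0 replaced by 3 counts, 5xFAD was at least 3.15-fold higher than wild type, with an exact interval that starts at 2.36. All 3 knockout libraries were below 5xFAD, at 0.585 (0.282 to 1.18), 0.767 (0.355 to 1.59) and 0.535 (0.234 to 1.15), with intervals that span equality in each. In nuclei with Y-linked UMIs all 3 were above 5xFAD instead, by log2 ratios of 1.98, 0.85 and 1.23, and by highest marker score the first 2 were, by 0.02 and 0.23.

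Igf1, a secreted growth factor, lies on chromosome 10 (87858265 to 87937042, plus strand), where the antisense gene Igf1os overlaps it. It had 0, 45, 65, 34 and 39 microglial UMIs, or 0, 203, 252, 199 and 189 CPM. The wild-type nuclei held none, and the 4 transgenic libraries had overlapping intervals. The 5xFAD level was at least 6.45-fold higher than wild type, the largest such bound among the 10 genes, and the knockout libraries stood at 1.24, 0.980 and 0.928 of 5xFAD.

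Ccl6, a chemokine of myeloid cells, lies on chromosome 11 (83587882 to 83593087, minus strand), where E230016K23Rik overlaps it on the other strand. It had 1, 8, 18, 15 and 11 UMIs, or 10.5, 36.2, 69.8, 87.9 and 53.2 CPM. The ratio of 5xFAD to wild type was 3.44, with an interval of 0.461 to 153 that spans equality. All 3 knockout libraries were above 5xFAD, at 1.93 (0.798 to 5.13), 2.43 (0.968 to 6.62) and 1.47 (0.540 to 4.22), and each interval spans equality. Lgals3, which encodes the lectin galectin-3, lies on chromosome 14 (47367751 to 47386160, plus strand) and had 0, 0, 2, 7 and 2 UMIs. Both wild type and 5xFAD had none, so that neither a fold nor a direction can be given. With 0 replaced by 3 counts, the library labelled as neuron MAGL-KO was at least 3.03-fold higher than 5xFAD, from 7 UMIs in 4 nuclei. The exact interval of that ratio starts at 1.87.

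Counted over the list, 8 of the 10 genes were at least 2-fold higher in 5xFAD than in wild type and 0 were at least 2-fold lower, on the scale log2(CPM + 5). Of the 13269 genes with at least 1 UMI over both libraries, 19.6% were at least 2-fold higher and 13.6% at least 2-fold lower. Of the 10, 7 had the 10 UMIs over both libraries that the whole-table count asks for, and 6 of those were at least 2-fold higher. With genes at 0 in wild type set at their bound, 6 of the 10 and 5 of the 7 were at least 2-fold higher, since Itgax and Gpnmb then fall short, and 12.9% of all genes were. Over all 5545 microglial genes with 10 UMIs, 13.8% were at least 2-fold higher in 5xFAD and 7.18% at least 2-fold lower. The median log2 ratio of the 10 genes was 3.07, against 0.04 over all those genes. It was 1.66 over the 9 genes other than Lgals3 with genes at 0 in wild type set at their bound. Genes that are near 0 in wild type enter the count only through 5xFAD, and the 10 genes were chosen with earlier results of these data known.

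Against the 5xFAD library, which all 3 knockout comparisons share, few of the 10 genes differed by 2-fold. Among members with 10 UMIs over the pair, 0 were higher and 1 (Spp1) lower in the library labelled as astrocyte MAGL-KO, where 6.46% and 4.77% of 6999 genes were. In the library labelled as neuron MAGL-KO 1 (Ccl6) was higher and 0 lower, where 6.91% and 6.57% of 6366 genes were. In the library labelled as global MAGL-KO 0 were higher and 2 (Cst7 and Spp1) lower, where 6.11% and 5.87% of 6529 genes were. Over all 10 genes with no minimum the last library had 1 higher and 3 lower, where 10.3% and 10.0% of 14065 genes were. These counts of the 10 genes were 0 and 1 with a pseudocount of 20 CPM and 1 and 1 after thinning to 1000 UMIs. When microglia were taken by highest marker score, 0 were higher and 0 lower in each of the 3 comparisons. That rule took 188 nuclei with 2047852 UMIs in 5xFAD, against 86 nuclei with 221270 UMIs in the microglial cluster. Of these, 302 and 264 were UMIs of the 10 genes. With the minimum of 10 UMIs each count is of 2 genes at most and rests on a handful of UMIs for Spp1 and Ccl6. The summed level of the 10 genes differed from 5xFAD by a log2 ratio of -0.05 (-0.30 to 0.19), 0.12 (-0.15 to 0.38) and -0.43 (-0.71 to -0.15) in the same order, and the median ratio was -0.17, 0.00 and -0.23. After thinning to 1000 UMIs per nucleus the last of the 3 sums was -0.22 (-0.65 to 0.21), an interval that spans equality. Over 9, 10 and 9 genes, with any gene at 0 set at its bound, the medians were -0.36, 0.00 and -0.36, against all-gene medians of 0.03, 0.01 and 0.01. Lgals3 was left out of the first and the last, where both libraries had 3 UMIs or fewer. In the last no gene was at a bound, so its shift from -0.23 comes from leaving out Lgals3.

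Markers of border macrophages were highest in the library labelled as global MAGL-KO. The 10 border macrophage genes summed to 13, 17, 21, 11 and 115 UMIs in the microglial nuclei of wild type, 5xFAD and then the libraries labelled as astrocyte, neuron and global MAGL-KO, or 137, 76.8, 81.4, 64.5 and 557 CPM. Of the 10 genes 8, 6, 8, 9 and 0 were at 0, and the last library held 30 UMIs of Mrc1 and 26 of F13a1. The 18 genes of other immune cells summed to 54, 208, 202, 191 and 181 UMIs, of which 52, 180, 194, 177 and 162 were Csf3r, a receptor that microglia also express. Without the nuclei holding UMIs of at least 2 border macrophage genes other than Stab1, or of a T cell or dendritic cell gene, 43, 82, 122, 52 and 90 nuclei were left. The summed log2 ratios were then 2.48 for 5xFAD against wild type and -0.09, 0.10 and -0.46 for the 3 knockout libraries against 5xFAD, close to the values with all nuclei. Without every nucleus that held any border macrophage or other immune UMI, Csf3r included, 4 to 38 nuclei per library were left, and the 3 knockout ratios were -0.55, 0.5 and -1.09.

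The wider set of plaque-response genes was read from a list of 43 other genes. This list and the homeostatic list below were chosen with earlier results of these data known. In wild type 13 of the 43 had no UMI, and such genes enter the counts only through 5xFAD. In 5xFAD against wild type 33 of the 43 were at least 2-fold higher and 1 at least 2-fold lower, where 19.6% and 13.6% of all genes with at least 1 UMI were. Of the 36 with 10 UMIs over both libraries 29 and 1 were (26 and 1 with genes at 0 set at their bound), where 13.8% and 7.18% of all such genes were. The median log2 ratio was 1.73, or 1.33 over 41 of the genes with those at 0 set at their bound. Apoe, the lipid carrier, had 6 microglial UMIs in wild type and 1535 in 5xFAD, or 63.0 and 6937 CPM, a 110-fold ratio (50.4 to 300.3). Lpl, a lipase, and Lilrb4a, an inhibitory receptor, had no UMI in wild type. With 0 replaced by 3 counts they were at least 4.73-fold and 3.15-fold higher in 5xFAD, bounds without the counting error of 5xFAD. The lowest of the list with 10 UMIs were Tlr2, at a log2 ratio of -1.06 on 5 UMIs in each library, Ctss at 0.30 and Cd84 at 0.36. Homeostatic genes were mostly lower: of 20, 3 were at least 2-fold lower (Slc2a5, a hexose transporter, at -1.95, P2ry13 at -1.06 and Cx3cr1 at -1.05), 1 was at least 2-fold higher, and 18 lay below 0, with a median of -0.47. The highest of them were Serpine2 at 1.94, Mef2c at 0.37 and Cst3 at 0.00.

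In the knockout libraries the 43 genes had medians of 0.08, 0.13 and -0.40 against 5xFAD for the labels astrocyte, neuron and global. The medians over all genes with 10 UMIs were 0.03, 0.01 and 0.01. In the last library 35 of the 43 lay below 5xFAD, and the share of all genes on either side of 5xFAD is not given here. Among the 41, 40 and 38 of them with 10 UMIs over the pair, 4, 2 and 0 were at least 2-fold higher, where 6.46%, 6.91% and 6.11% of all genes were. At least 2-fold lower were 4, 0 and 5, against 4.77%, 6.57% and 5.87% of all genes. Apoe stood at 818, 1232 and 751 UMIs in those libraries, a log2 ratio of -1.13, 0.06 and -0.93 to 5xFAD. The homeostatic genes had medians of 0.18, -0.02 and 0.01, and 18 of the 20 lay above 5xFAD in the library labelled as astrocyte MAGL-KO, none by 2-fold. The plot of ratios by list sets the 10 genes beside both lists.

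**Figure D2:**
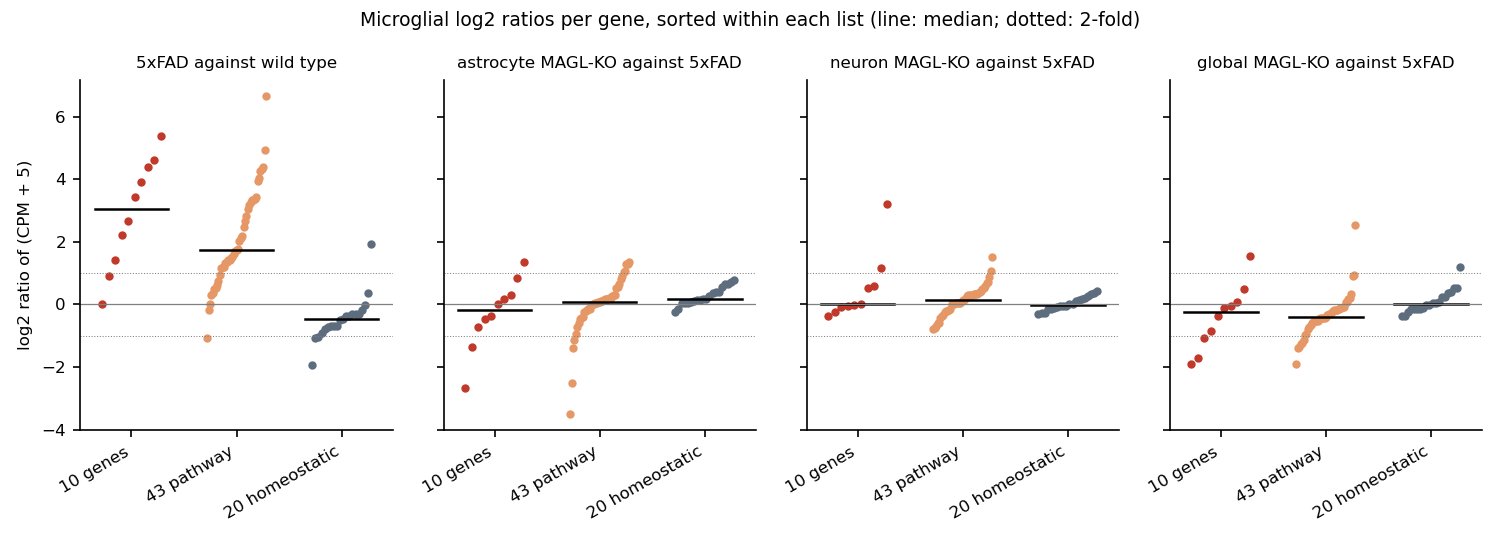
Log2 ratio of CPM plus 5 in microglia (vertical axis) for each of the 10 genes, 43 pathway genes and 20 homeostatic genes (horizontal axis), sorted within each list, in the 4 comparisons; black lines are medians and dotted lines 2-fold. In 5xFAD against wild type the medians of the plaque-response lists are 3.07 and 1.73, with 9 of the 10 and 40 of the 43 genes above 0, and medians against 5xFAD lie between -0.40 and 0.18.

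The receptors, ligands and enzymes that the members act with were described by the same counts: of 18 genes 2 were at least 2-fold higher and 1 at least 2-fold lower in 5xFAD, or 1 and 0 of the 13 with 10 UMIs, which is near the 13.8% and 7.18% of all genes, with a median of 0.00 over the 18. Csf1r, the receptor of CSF1, was at 1429 CPM in wild type and 1044 in 5xFAD, a ratio of 0.731 (0.589 to 0.910). Igf1r, the receptor of IGF1, was at 368 and 438, and Mertk, a receptor of the same family as AXL, at 2585 and 2142. The AXL ligand Gas6 was at 52.5 and 58.8 CPM, from 5 and 13 UMIs. Mitf, a transcription factor of lysosomal genes, was 1.90-fold higher in 5xFAD (1.39 to 2.65), and Ctsl, a cysteine protease of the kind that cystatin F acts on, 2.29-fold (1.31 to 4.29). Ctsl also belongs to the 43 genes, and Csf1r to the homeostatic list. Cd44, a receptor of osteopontin, had 0 UMIs in wild type and 6 in 5xFAD.

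Over the 5 libraries, the genes whose microglial pattern lay nearest to the summed level of the 10 were Arid5b, Apbb2, H2-K1, Gcnt2 and Hif1a. The measure was the root mean square difference of log2 levels centred on each gene's mean, over 2155 genes with 100 UMIs, and it was 0.155, 0.174, 0.182, 0.189 and 0.19 for these genes. H2-K1, a class I antigen-presenting molecule, stood at 63.0, 316, 364, 510.0 and 281 CPM in wild type, 5xFAD and then the libraries labelled as astrocyte, neuron and global MAGL-KO. Hif1a is 1 of the 43 pathway genes.

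Single nuclei showed how many of the genes were seen together. After each nucleus was thinned to 1000 UMIs, which left out 6 shallower nuclei in all, at least 1 of the 10 genes was seen in 14.3% of 42 wild-type nuclei (5.43% to 28.5%) and 54.1% of 85 in 5xFAD (42.96% to 65.0%). In the libraries labelled as astrocyte, neuron and global MAGL-KO it was seen in 55.4%, 62.3% and 45.8% of 121, 53 and 96 nuclei. Without Cd68 the shares were 2.38% in wild type, 38.8% in 5xFAD, 38.0%, 39.6% and 34.4%. Before thinning they were 6.98%, 50.0%, 47.2%, 63.0% and 46.4%, at unequal depths. Wild type stood apart from all 4 transgenic libraries, whose intervals overlap. The largest number of the 10 genes seen in 1 nucleus before thinning was 2, 7, 8, 8 and 6.

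**Figure D3:**
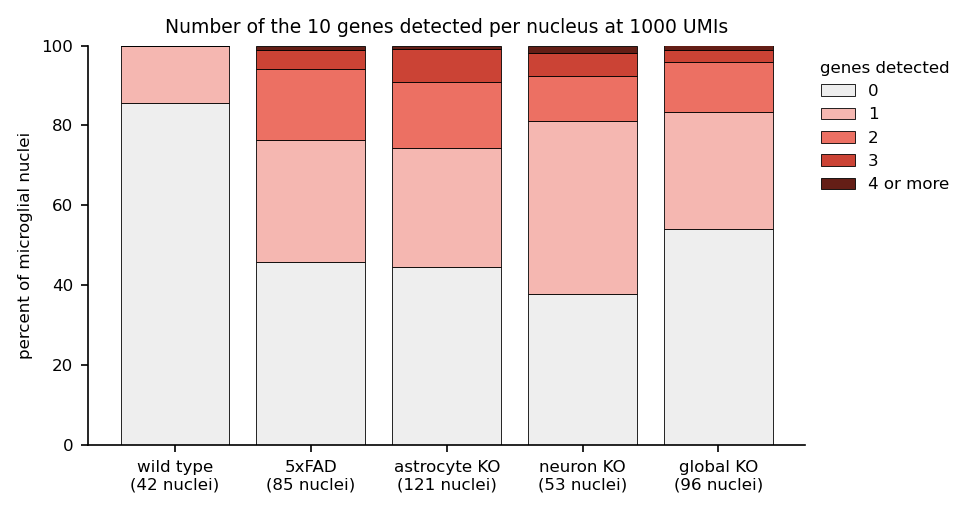
Percent of microglial nuclei (vertical axis) in which 0, 1, 2, 3 or at least 4 of the 10 genes had a UMI after thinning to 1000 UMIs, for each of the 5 libraries (horizontal axis, with the number of nuclei; KO stands for the MAGL-KO label). In wild type 85.7% of nuclei had none, against 45.9% in 5xFAD.

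Single genes were seen in fewer nuclei. Cst7 was seen in 0, 16.5%, 16.5%, 18.9% and 8.33% of thinned microglial nuclei of wild type, 5xFAD and then the libraries labelled as astrocyte, neuron and global MAGL-KO, and the 0 of 42 in wild type has an exact upper limit of 8.41%. In excitatory neurons, which are not known to express it, the thinned share was at most 0.0564%. Igf1 was seen in 0, 10.6%, 15.7%, 15.1% and 13.5% of microglial nuclei and Axl in 0, 12.9%, 9.09%, 9.43% and 7.29%. Cd68 was seen in 11.9%, 29.4%, 30.6%, 30.2% and 20.8%, against at most 0.15% of excitatory neurons. Lgals3 was seen after thinning in 1 nucleus of the library labelled as neuron MAGL-KO and in none elsewhere, and Gpnmb in 2 of 5xFAD and none elsewhere. The median depths before thinning were 2039 to 2849 UMIs in microglia and 13784 to 17973 in excitatory neurons.

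Nuclei with a UMI of any of the 9 genes other than Cd68 also differed from the other microglial nuclei of their library in genes that were not used to pick them. In 5xFAD the 43 pathway genes summed to 36148 CPM in the 33 nuclei with such a UMI and 17131 in the 52 without. The difference had the same direction in the libraries labelled as astrocyte MAGL-KO (28883 against 16558), neuron MAGL-KO (29897 against 26473) and global MAGL-KO (26295 against 13699.7). Apoe was at 12053 against 3480 CPM in 5xFAD, 5302 against 1898 and 6812 against 1930.3 in the libraries labelled as astrocyte and global MAGL-KO, and the other way round, 6321 against 7857, in the library labelled as neuron MAGL-KO. P2ry12, a purine receptor of resting microglia, was lower in the nuclei with a UMI in all 4, at 704 against 1229, 524 against 1370, 596 against 1085 and 414 against 1194. P2ry12 was picked after its values were seen, and the homeostatic list as a whole differed less, at 21347 against 23915 in 5xFAD and 23119 against 28202, 21499 against 23774 and 18463 against 24155 in the others. Median depths of the 2 kinds of nuclei were 2596 and 2393 UMIs in 5xFAD, 1992 and 2099, 2813 and 2892, and 2222 and 2043 in the others.

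Some of the genes were seen more often in microglial nuclei that held a Cst7 UMI. In 5xFAD, Axl had a UMI in 14 of 28 nuclei with a Cst7 UMI and in 6 of 58 without, and Igf1 in 11 of 28 and 8 of 58. Nuclei with Spp1 UMIs also held Cst7 in 0 of 1, 3 of 3, 3 of 4, 4 of 4 and 1 of 2 cases in the 5 libraries, wild type first. Igf1 was more frequent beside Cst7 in the libraries labelled as astrocyte, neuron and global MAGL-KO too, at 51.7% against 10.6%, 42.1% against 11.4% and 31.2% against 17.3%. Axl was at 34.5% against 12.8% and 31.2% against 14.8% in the libraries labelled as astrocyte and global MAGL-KO, but at 21.1% against 20.0% in the library labelled as neuron MAGL-KO. Cd68 was there seen in 12 of 19 nuclei with Cst7 and 21 of 35 without. Lgals3 was seen in 1 of 19 nuclei with Cst7 and 3 of 35 without in the same library, and in 0 of 16 and 2 of 81 in the library labelled as global MAGL-KO, where Gpnmb was seen in 0 of 16 and 1 of 81. Nuclei with Cst7 were deeper in each library, with median depths of 2857 against 2278 UMIs in 5xFAD, 2186 against 2006, 3265 against 2729 and 2420 against 2055, and the part of depth in these shares was not tested.

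Outside microglia some of the 10 genes were near 0 CPM in each class, and others had a second class of cells with a clear level. In 5xFAD 9 of the 10 genes had their highest CPM in microglia, against 3 in wild type and 8, 7 and 7 in the libraries labelled as astrocyte, neuron and global MAGL-KO. When microglia were taken by highest marker score, the number was 6 in 5xFAD, 5 in wild type and 7 in each knockout library. Over the 4 transgenic libraries microglial nuclei held 84.1% of the 44 UMIs of Itgax, 62.7% of 83 of Ccl6, 44.2% of 692 of Cd68 and 38.0% of 413 of Cst7, although microglia made up 1.38% to 2.10% of the nuclei there. The microglial share was 30.8% for Axl, 20.8% for Spp1, 8.09% for Lgals3 and 3.03% for Csf1, and those of Igf1 and Gpnmb are given below. Most of the other Cst7 and Cd68 UMIs lay in the far larger pool of neurons, at levels of at most 1.29 CPM in excitatory and inhibitory neurons of every library. The map of levels by class shows wild type and 5xFAD side by side.

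**Figure D4:**
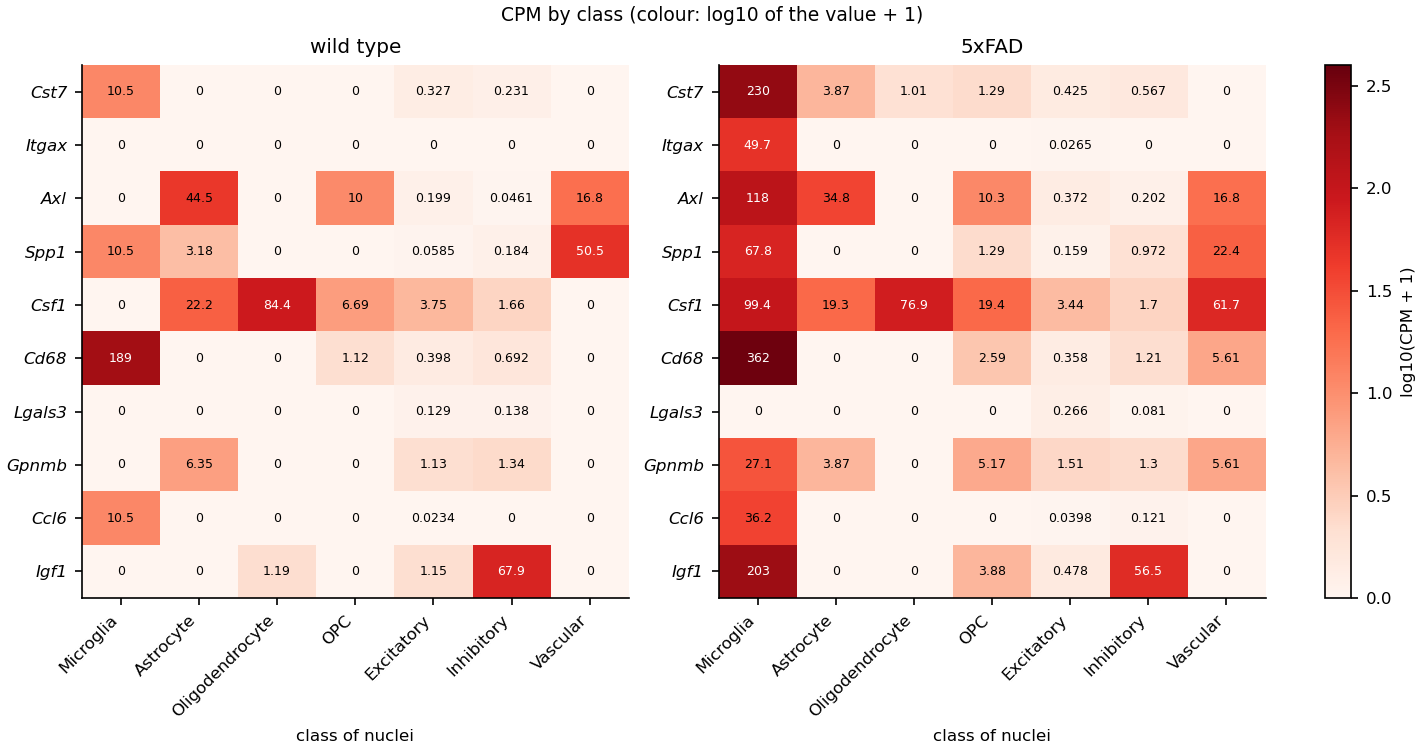
CPM of each of the 10 genes (rows) in 7 classes of nuclei (columns; OPC are oligodendrocyte precursors) in wild type and 5xFAD, 1 library each, with the value printed in each cell and the colour giving log10 of the value plus 1. Igf1 is at 67.9 and 56.5 in inhibitory neurons and at 0 and 203 in microglia, and Csf1 is at 84.4 and 76.9 in oligodendrocytes and at 0 and 99.4 in microglia.

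Igf1 UMIs came mostly from inhibitory neurons, which held 90.8% of them over the 4 transgenic libraries, against 3.05% in microglia. The inhibitory level was 67.9, 56.5, 59.7, 57.9 and 54.0 CPM in wild type, 5xFAD and then the libraries labelled as astrocyte, neuron and global MAGL-KO, with 1299 to 1472 UMIs in each. The wild-type interval (64.4 to 71.4) lies above those of the 4 transgenic libraries, which run from 51.2 to 62.9, whereas in microglia wild type had 0 UMIs and the others 189 to 252 CPM. The class was made up of 5 clusters in unequal proportion. One with little Igf1 (10.9 CPM in wild type and 6.65 in 5xFAD) held 9.28% of inhibitory UMIs in wild type and 21.3% in 5xFAD, against 6.10% to 10.8% in the other 3 libraries. Without it the class stood at 73.7 CPM in wild type (69.9 to 77.6) and 70.1 in 5xFAD (66.4 to 73.9), intervals that overlap. Without any 1 of the other 4 clusters wild type stayed above 5xFAD with intervals apart, the closest being 63.1 (59.6 to 66.8) against 55.1 (52.1 to 58.3). Without the cluster with little Igf1 the class stood at 65.4, 64.2 and 57.1 in the knockout libraries, whose intervals end at 68.9 or lower. In the other 4 clusters wild type and 5xFAD stood at 172 and 161 CPM and at 12.1 and 12.4, with overlapping intervals. They also stood at 38.1 (34.6 to 41.8) and 24.8 (21.8 to 28.1), and at 97.6 (86.8 to 109.5) and 69.5 (59.5 to 80.7), with intervals apart. The cause of the difference in the whole class was not tested.

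Csf1 had a second source in oligodendrocytes, at 84.4, 76.9, 86.0, 153 and 95.3 CPM, from 71, 76, 64, 133 and 52 UMIs. The library labelled as neuron MAGL-KO stood above the other 4, whose intervals overlap, with an interval of 128 to 182. By number, excitatory neurons held 61.4% of the Csf1 UMIs of the 4 transgenic libraries, at 4.00 CPM, and oligodendrocytes 16.1%. Axl was present in astrocytes, at 44.5, 34.8, 77.7, 44.1 and 85.8 CPM from 9 to 14 UMIs in each library, with overlapping intervals. In wild type, where microglia held no Axl UMI, 14 of its UMIs were in 71 astrocytes. Spp1 was found in vascular cells, with 3, 4, 2, 15 and 4 UMIs in 13 to 22 nuclei. Over the 4 transgenic libraries it stood at 49.4 CPM there and 49.0 in microglia, and in wild type at 50.5 and 10.5.

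Most Gpnmb UMIs lay outside microglia. Those in oligodendrocyte precursors numbered 0, 4, 20, 63 and 52, or 0, 5.17, 28.4, 56.7 and 86.4 CPM, in 0 of 137, 4 of 105, 12 of 118, 20 of 148 and 15 of 103 nuclei. By UMIs, precursors in the 3 libraries labelled MAGL-KO were above 5xFAD and wild type, with intervals of 17.3 to 43.8, 43.6 to 72.6 and 64.6 to 113 against 1.41 to 13.2 in 5xFAD. These intervals treat the UMIs of 1 nucleus as independent and are too narrow, since up to 3, 6 and 12 UMIs came from 1 nucleus. Of the 2 clusters of the class, the one led by Lhfpl3, Pdgfra and Vcan held 0, 4, 17, 63 and 52 of these UMIs, in 0 of 118, 4 of 82, 11 of 88, 20 of 115 and 15 of 90 nuclei. The one led by Bcas1, Tns3 and Enpp6 held 3 in all. In the library labelled as global MAGL-KO 12 of the 52 came from 1 nucleus, and the cause of the difference between libraries was not tested. In excitatory neurons Gpnmb was also higher in the 3 libraries, at 1.13, 1.51, 4.80, 3.71 and 2.66 CPM, while mature oligodendrocytes had 0 UMIs in every library. The 4 transgenic libraries held 1422 Gpnmb UMIs, of which microglia gave 0.985%.

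Chromatin was read as Tn5 cut sites in the peaks listed for each library. Microglial nuclei held 374641 to 853173 cut sites per library, and levels are given per 1000000 cut sites of the class (CPM of cut sites). A peak within 1000 bases of the start position, or span of starts, that the deposited feature table gives was listed for 6, 5, 6, 6 and 5 of the 10 genes in wild type, 5xFAD and then the libraries labelled as astrocyte, neuron and global MAGL-KO, and for Cst7, Itgax and Ccl6 in none. A gene without a listed peak has no value here rather than a value of 0, and the listed peaks come from all nuclei of a library, most of them neurons.

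The Cd68 promoter, whose sequence is shown above with its 3 motif matches, was open in microglia of every library. It had 25, 81, 102, 67 and 51 microglial cut sites, or 66.7, 102, 120, 115 and 82.1 CPM, against 7.0 to 9.3 in excitatory neurons. The wild-type interval of 43.2 to 98.5 overlaps those of all 4 transgenic libraries, whose lower ends are 81.1, 97.5, 89.3 and 61.2. Within 3000 bases the 5xFAD library lists a second Cd68 peak, which takes its value to 222 CPM from 176 cut sites, while the other 4 list none and keep their values. The 4 peaks over the span of Csf1 starts had 14, 73, 83, 41 and 46 cut sites, or 37.4, 92.1, 97.3, 70.5 and 74.1 CPM. For Csf1 the 5xFAD interval (72.2 to 116) lies above that of wild type (20.4 to 62.7), in the direction of the RNA. These and the other cut-site intervals treat the cut sites of a nucleus as independent and are too narrow. The peak at the Csf1 start held 64 in 26 of 86 nuclei of 5xFAD and 12 in 7 of 43 of wild type. Whether the Csf1 intervals stay apart when nuclei are the unit was not tested. Oligodendrocytes had 82.1 CPM in 5xFAD and 88.1 in wild type.

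At Axl the promoter and an intron differed. The promoter peak had 2, 7, 29, 2 and 9 microglial cut sites, or 5.34, 8.83, 34.0, 3.44 and 14.5 CPM, below the astrocyte values of 71.7, 52.3, 108, 61.0 and 81.1. A second Axl peak lay in an intron, at chr7:25776429-25777371 in 5xFAD and chr7:25776493-25777410 in the library labelled as astrocyte MAGL-KO, 11805 and 11754 bases from the annotated start. It held 65 and 76 microglial cut sites in 26 of 86 and 31 of 123 nuclei, or 82.0 (63.3 to 104) and 89.1 (70.2 to 111) CPM, and 0 in astrocytes and oligodendrocytes of both libraries. Microglia gave 58.0% and 41.1% of its cut sites while they were 1.73% and 2.10% of nuclei. The peak is not listed in the other 3 libraries, so its openness there has no value. It was singled out after the values of all peaks in the 10 genes had been seen.

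**Figure D5:**
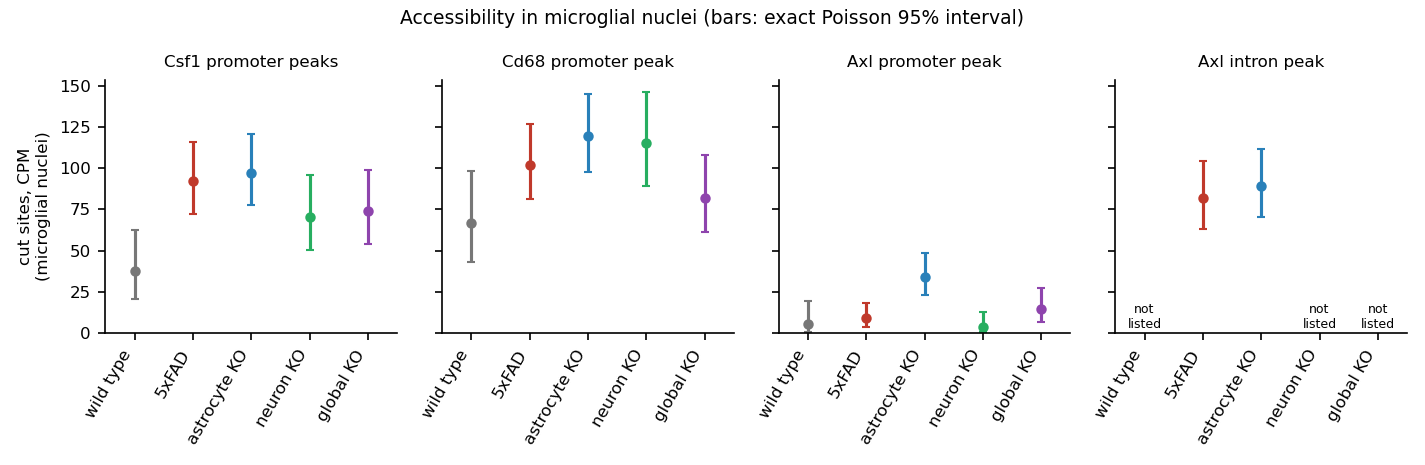
CPM of microglial cut sites (vertical axis) at the Csf1 and Cd68 promoters and at the Axl promoter and intron peak in the 5 libraries (horizontal axis; KO stands for the MAGL-KO label), with exact Poisson 95% intervals as bars. The Axl intron peak is at 82.0 and 89.1 in the 2 libraries that list it, above the Axl promoter peak at 8.83 and 34.0.

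For Lgals3 the feature table gives starts inside the gene, at 47373813 to 47373964 on chromosome 14, where a peak was listed in the libraries labelled as astrocyte and neuron MAGL-KO alone, with 12 and 7 microglial cut sites. At the GENCODE start of the gene, 47367751, every library lists a peak with its centre 2 to 13 bases away, and it held 0, 2, 0, 1 and 0 microglial cut sites of 589 to 702 over all named classes. Igf1 promoter peaks, listed in 4 libraries and not in 5xFAD, lay at differing positions, so their counts are not compared between libraries. The wild-type peak, at chr10:87857726-87858450, held 0 microglial cut sites. Peaks at chr10:87860149-87861088 (astrocyte MAGL-KO label) and chr10:87860218-87861117 (global MAGL-KO label) held 2 and 3. Under the neuron MAGL-KO label a peak was listed near each of the 2 positions, with 5 and 8, or 13 together. Promoter peaks of Gpnmb held 0 or 1 in each library.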

How the data were processed

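Per the labels, nuclei were isolated from hippocampus with an iodixanol clean-up and put through the 10x multiome assay, 1 library per genotype, all in 1 batch. The deposited matrices hold raw counts per nucleus, of UMIs per gene and of cut sites per peak, and the submitters' processing notes name Cell Ranger ARC 2.0.0, mm10 and Seurat. Peaks were listed separately for each library per the file contents, with differing peak sets. The 10 genes and the gene lists were chosen with earlier results of these data known. Kept nuclei had 500 or more genes and no more than 5% of UMIs from mitochondrial genes, and doublets were removed with Scrublet as run in scanpy 1.11.5. Nuclei were clustered (Leiden, resolution 1, 40 components, 2000 variable genes) and classes named from marker lists. The 10 genes and the pathway, partner and homeostatic lists were left out of the clustering genes. The border macrophage and other immune lists were not. UMIs and cut sites were summed per library and class and scaled to 1000000 (CPM). Folds, their intervals and log2 ratios of summed levels carry no pseudocount. Log2 ratios of single genes, list medians and 2-fold counts are on log2(CPM + 5), and the counts over all genes used those with at least 10 UMIs over both libraries. Intervals are 95%: exact Poisson for counts, conditional binomial for ratios, Clopper-Pearson for shares, and cover counting error only. A 0 was replaced by 3 counts for bounds, which leave out the counting error of the other library. Genes with 3 UMIs or fewer in both libraries were left out of medians at the bound. Named genes were the 10 members, the 3 highest and 3 lowest ratios of the pathway and homeostatic lists in 5xFAD against wild type, some of the partner genes with 10 UMIs over the 5 libraries, and the 5 most alike genes with 100 UMIs. Other pathway genes named in passing, Apoe and P2ry12 in single nuclei and the Axl intron peak were chosen after their values were seen, as were peaks over the gene bodies, precursor and inhibitory clusters, counts at the bound and the alternative that leaves out nuclei with border macrophage, T cell or dendritic cell UMIs. Gene spans are from GENCODE vM21 and promoter sequences from RefSeq. The scripts were tested on simulated data with known changes. Alternatives covered the pseudocount, scaling, thinning, filters, class rule, nuclei kept and promoter window. Strand and intron use in counting are not given in the sources used here, so overlapping genes such as Igf1os and Igf1 may share counts.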

Additional observations from a re-analysis of the deposited data

Results flagged for a closer look

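In microglia, Cd68 differed in opposite directions between the library labelled as astrocyte MAGL-KO and 5xFAD when nuclei were split by UMIs of Xist and of Y-linked genes. In nuclei with Xist UMIs the log2 ratio was 1.02 (0.42 to 1.69), from 30 UMIs in 44 nuclei of 5xFAD and 83 UMIs in 76 nuclei of the library labelled as astrocyte MAGL-KO, or 253 and 520.2 CPM. In nuclei with Y-linked UMIs it was -1.15 (-2.13 to -0.27), from 38 UMIs in 32 nuclei and 15 UMIs in 31 nuclei, or 487 and 217 CPM. Both intervals cover counting error only, with 1 library per group, and the difference between the 2 kinds of nuclei was not tested.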

How the results depend on the processing

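No paired analysis was possible because there was 1 library in each group, and no library could be left out for the same reason. Of the alternative values of the sums, medians and counts, 116 stayed within the counting interval or within 1.5 times the count and 15 did not. For single members, 506 stayed and 43 moved beyond it. Of the ratios whose interval lay on one side of 0, 1 changed sign: Gpnmb in the library labelled as astrocyte MAGL-KO against 5xFAD, at 0.43 when microglia were taken by highest marker score. Ratios whose interval spans 0 changed sign more widely, as with Cd68 and Csf1 in the same comparison, which ran from -1.15 to 1.02 and from -3.65 to 1.98, and with Ccl6 and Spp1 in 5xFAD against wild type, which went down to -2.86 and -0.98. Taking microglia by highest marker score gave 0.43 for the summed level in the library labelled as neuron MAGL-KO against 5xFAD. It put 5 of the 10 genes highest in microglia in wild type, 6 in 5xFAD and 7 in each knockout library. It took 188 nuclei with 2047852 UMIs in 5xFAD, against 86 nuclei with 221270 UMIs in the microglial cluster. Without nuclei holding any border macrophage or other immune UMI, which leaves 15, 18, 38, 4 and 18 nuclei, the summed log2 ratios to 5xFAD were -0.55, 0.5 and -1.09 for the labels astrocyte, neuron and global. In nuclei with Y-linked UMIs alone the summed ratio of 5xFAD to wild type was 1.62, and without Cd68 it was 4.72. With a minimum of 30 UMIs the counts past 2-fold were 2 of 3 higher in 5xFAD (8.71% of all genes), 0 of 5 lower (astrocyte, 1.65%), 0 of 6 higher (neuron, 1.81%) and 1 of 5 lower (global, 2.11%). With no minimum above 1 UMI they were, of 9, 8 higher and 0 lower in 5xFAD (19.6% and 13.6%). Of 10, they were 1 higher and 2 lower (astrocyte, 10.6% and 8.57%), 2 higher (neuron, 17.9%) and 1 higher and 3 lower (global, 10.3% and 10.0%). In 5xFAD the Cd68 promoter was at 222 CPM with a window of 3000 bases. The cause of these shifts was not tested. The summed ratio ranged over 1.62 to 4.72 for 5xFAD against wild type, -0.55 to 0.15, 0.07 to 0.5 and -1.09 to -0.21 for the knockout libraries. Depth limits every gene with under 10 microglial UMIs in a library, above all Lgals3 and Gpnmb, and the UMIs of Spp1 came from few nuclei.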
